A study of Homo sapiens with 12 samples.

Results

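Integrins are cell surface receptors made of one alpha and one beta subunit, and they hold epithelial cells to the extracellular matrix and carry signals in both directions across the membrane. The expression of 10 integrin subunits, ITGA2, ITGA3, ITGA5, ITGA6, ITGAV, ITGB1, ITGB4, ITGB5, ITGB6 and ITGB8, was examined in HCT116 cells, an established line from a human colorectal cancer that forms poorly-differentiated tumours. They were chosen by symbol from the 28395 genes of the count table, and all 10 were among the 15853 genes that passed the filter on low counts, ITGB6 through the libraries of one line alone. ITGB1 is the common beta subunit, which binds collagen with ITGA2, laminin with ITGA3 and fibronectin with ITGA5. ITGB4 pairs with ITGA6 alone and anchors the hemidesmosome to laminin, while ITGB5, ITGB6 and ITGB8 each pair with ITGAV. Of the ITGAV receptors, the one with ITGB5 binds vitronectin, and those with ITGB6 and ITGB8 bind and activate latent TGF-beta.

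The 4 stable lines, called EV, EHF, CDX1 and EHF+CDX1 after what they carry, were compared, each with 3 polyA RNA-seq libraries, to ask what the transcription factors EHF, an ETS family member of epithelia, and CDX1, an intestinal caudal homeobox factor, do alone and together. HCT116-EV cells held the pcDNA plasmid with no insert, and an EHF insert was present in that of HCT116-EHF cells; geneticin-resistant clones of both were isolated. HCT116-CDX1 cells were transduced with a CDX1 retrovirus and sorted for GFP, and HCT116-EHF+CDX1 cells are geneticin-resistant clones of HCT116-CDX1 cells transfected with the EHF plasmid, so that the CDX1 line has no vector control of its own and a difference between lines cannot be told apart from a difference between clones. All 4 lines were grown in DMEM-F12 with FCS. Nothing in the labels says that the libraries of a line came from separate cultures, and a legend of the study names fewer biological replicates than there are libraries, so that the p-values measure only the spread between libraries.

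Total counts ranged from 13523007 to 74186741 per library. Where a library had 0 reads of a gene, up to 3 could have been missed by counting error alone, which is 0.0375 to 0.207 CPM (counts scaled to a common library total) depending on the library. EHF RNA lay between 236.5 and 335.2 CPM in EV cells, between 11.89 and 12.99 in CDX1 cells, and between 17110 and 19890 in the cells with the EHF plasmid. CDX1 lay at or under 0.05 CPM without the retrovirus, between 487 and 559 CPM in CDX1 and between 5108 and 5639 CPM in EHF+CDX1 cells, so the EHF+CDX1 line also held more CDX1 RNA than the line it came from. The epithelial markers EPCAM, KRT8, KRT18, KRT19 and CDH1 were above 99 CPM in every library. Of 10 markers of fibroblasts, endothelium and leukocytes, COL1A2, DCN, CDH5, PTPRC and CD3E had at most 7 reads in any library, and PDGFRB, PECAM1 and VWF at most 1.45 CPM. In CDX1 cells COL1A1 (167 to 219 CPM), CD68 (76.8 to 88.0 CPM) and the epithelial EPCAM (469 to 527 CPM) were called higher than in EV cells, and KRT8, KRT18 and KRT19 were called lower, so the epithelial markers did not move together. As the libraries are of bulk RNA, fewer cells with an RNA and less of it per cell cannot be told apart.

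One library stood apart, EV replicate 3, and it bore on the integrins more than on most genes. In this library ITGA3 was 3.40 times the mean of EV replicates 1 and 2, ITGA2 3.26 times, ITGB4 3.16 times and ITGB1 2.62 times, whereas ITGB5 was 1.56 times and ITGB8 1.21 times that mean. The ratio was above 1.5 for 9 of the 10 subunits against 28.2% of the tested genes, and its median was 2.42 over the subunits against 1.05 over the tested genes. Among the 9 is ITGB6, whose ratio of 2.48 rests on 2, 1 and 9 reads in EV replicates 1, 2 and 3 and enters that median. The chi-square per degree of freedom of its counts was 323 against EV replicate 1 and 294 against EV replicate 2, while the other pairs of libraries of a line gave between 3.21 and 47.2. CDH1 was also highest in this library, at 374 CPM. The counts of calls and the medians against EV cells are therefore given with and without EV replicate 3, and the part that culture or clone has in its profile was not tested.

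**Figure D1:**
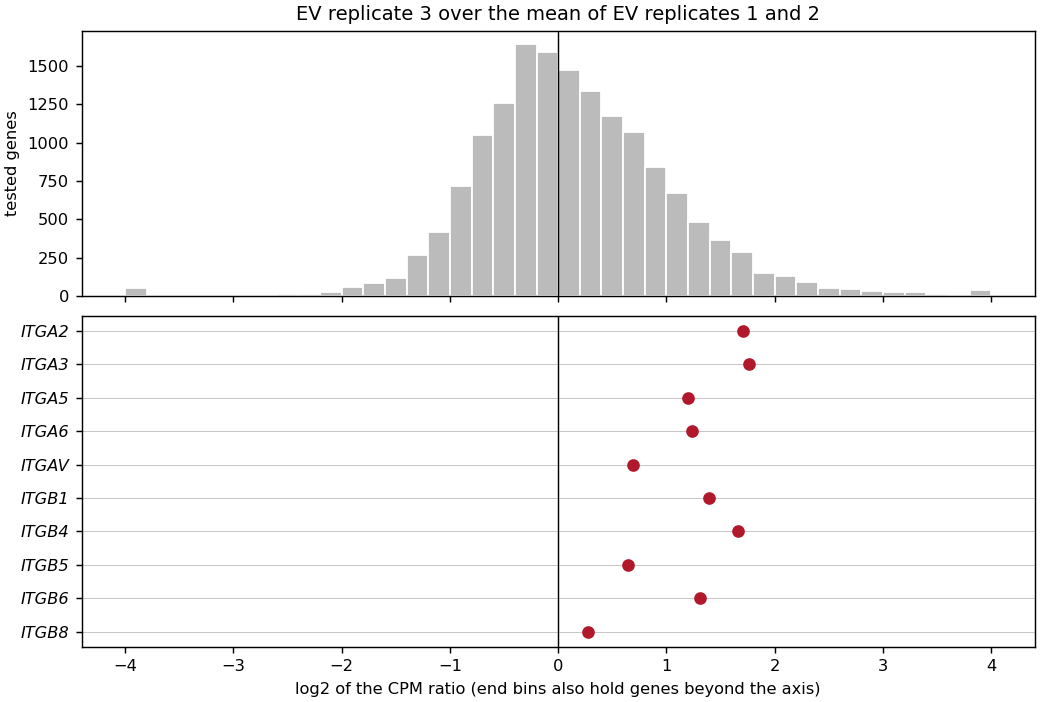
Upper panel, number of tested genes (vertical axis) by the log2 ratio of CPM in EV replicate 3 to the mean of EV replicates 1 and 2 (horizontal axis). Lower panel, the same ratio for each of the 10 integrin subunits, all of which lie to the right of 0, from ITGB8 at a ratio of 1.21 to ITGA3 at 3.40.

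A gene was called induced or repressed where edgeR's quasi-likelihood fit over all 12 libraries gave a Benjamini-Hochberg adjusted p of at most 0.05 against a 1.5-fold change, and changes are given as log2 fold change with its standard error. Levels are TMM-normalized CPM, which compare a gene between libraries, and RPKM, the same value per kilobase of exon, where genes are compared with each other.

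Across the lines the levels per exon length spanned a wide range. In EV cells ITGA3 had the highest RPKM of the subunits, at 180 ± 139 (SD, n = 3), followed by ITGB4 at 125 ± 90.9 and ITGB1 at 98.9 ± 60.2. ITGB8 at 0.354 ± 0.0415 RPKM and ITGB6 at 0.0213 ± 0.0128 RPKM were the lowest. ITGA3 also led in EHF (144 ± 4.04 RPKM) and EHF+CDX1 cells (106 ± 1.60 RPKM), but ITGB1 led in CDX1 cells, at 124 ± 9.79 RPKM against 80.6 ± 1.91 for ITGA3. ITGB8 and ITGB6 held the last places in each of the 4 lines. They were also the subunits whose mean log2 CPM varied most between lines, over a range of 4.51 for ITGB6 and 3.84 for ITGB8, against 0.48 for ITGB1.

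**Figure D2:**
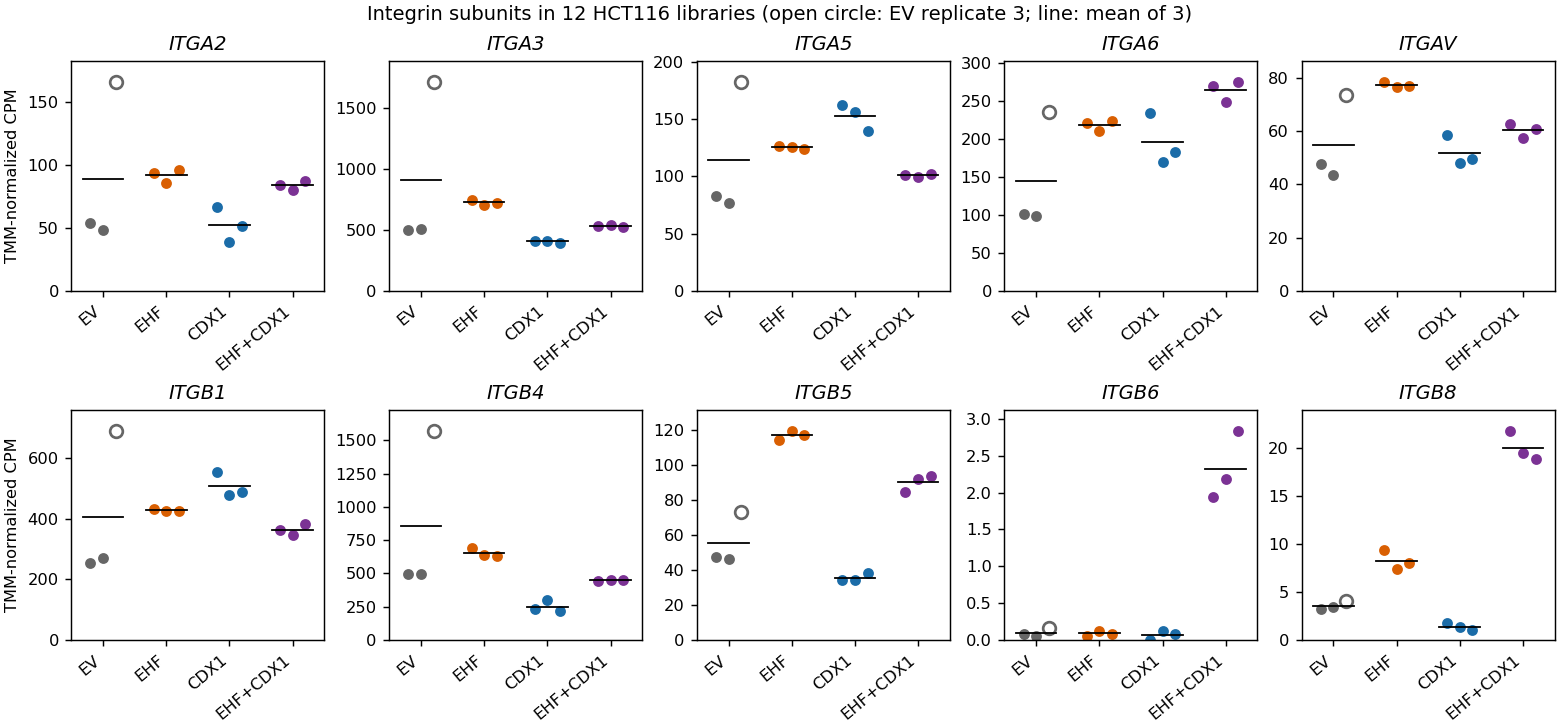
TMM-normalized CPM (vertical axis, from 0) of each integrin subunit in the 3 libraries of each of the 4 lines; points are libraries, lines are means of 3, and the open circle is EV replicate 3. ITGB6 and ITGB8 are highest in the 3 EHF+CDX1 libraries, and EV replicate 3 is the highest of the 12 libraries for ITGA2, ITGA3, ITGA5, ITGB1 and ITGB4.

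The subunit that differed most clearly among all 4 lines was ITGB8. Its CPM in replicates 1, 2 and 3 was 3.23, 3.41 and 4.02 in EV, 9.36, 7.35 and 8.0 in EHF, 1.77, 1.34 and 1.03 in CDX1, and 21.7, 19.4 and 18.9 in EHF+CDX1 cells. No library of one line overlapped with those of another, and EV replicate 3 lay close to the other EV libraries. These levels rest on 40 to 1244 reads per library. ITGB8 rose with EHF alone (log2 fold change 1.19 ± 0.18 SE, 2.29-fold, adjusted p = 0.0107) and fell with CDX1 alone (-1.37 ± 0.20, adjusted p = 0.000784). It rose in the EHF+CDX1 line against EV (2.48 ± 0.18, 5.59-fold, adjusted p = 4.92e-06) and against CDX1 (3.85 ± 0.20, 14.4-fold, adjusted p = 6.17e-08). Against EHF the rise was 1.29 ± 0.17 (adjusted p = 0.00805), and this call was lost when EHF replicate 2 (adjusted p = 0.0594), EHF replicate 3 (0.0513) or EHF+CDX1 replicate 1 (0.0523) was left out. The order of the lines was thus EHF+CDX1, EHF, EV and CDX1, and each neighbouring pair differed in edgeR's test against no change (adjusted p = 0.000531, 0.000445 and 5.68e-05). The rise with EHF alone was not called by limma voom with quantile normalization (adjusted p = 0.136), nor by limma on the deposited log2 RPKM (0.145), nor by limma voom without EV replicate 3 (0.323).

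ITGB6 was near absence in 3 of the lines and present in the fourth. It had 2, 1 and 9 reads in EV, 1, 6 and 7 in EHF and 0, 5 and 3 in CDX1 cells, so that differences among these 3 lines were not detectable at this depth. In EHF+CDX1 cells it had 111, 115 and 41 reads, or 1.94, 2.18 and 2.83 CPM, and the lowest of these was above the highest of the other 9 libraries, 0.165 CPM. ITGB6 passed the filter on low counts only through these 3 libraries and had to differ there, so its fitted differences are given as a description: 4.27 ± 0.55 against EV, 4.54 ± 0.54 against EHF and 5.07 ± 0.57 against CDX1 on the log2 scale. Even in the EHF+CDX1 line its level was 0.495 ± 0.0987 RPKM, below every other subunit.

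Because ITGB6 is the subunit that appeared in one line alone, the bases before its start are shown. ITGB6 lies on the minus strand of chromosome 2 (160099671 to 160200272, GRCh38.p14). The sequence is that of chr2:160200314-160200522, read 5′ to 3′ on the minus strand, from the RefSeq promoter of GRCh38.p14, without the last 41 bases before the start, which longer annotated transcripts of the gene hold. Capitals mark the matches to GGAA, the core that ETS factors such as EHF bind, or to its reverse complement TTCC.

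ITGB6 upstream: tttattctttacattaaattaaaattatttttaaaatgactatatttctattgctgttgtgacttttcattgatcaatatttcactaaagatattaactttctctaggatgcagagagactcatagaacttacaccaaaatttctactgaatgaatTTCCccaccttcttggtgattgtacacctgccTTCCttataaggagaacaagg

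These 209 bases held 2 matches, and the whole window of 250 bases held 3. A GGAA core on either strand is common, and it was found in 92.7% of 35116 RefSeq promoter windows of that length. The letters TTTATG and TTTATA, the core that caudal factors such as CDX1 bind, were searched on both strands, with CATAAA and TATAAA as the reverse complements, and neither was in the ITGB6 window, while 9.64% and 10.7% of all windows held them. The window was poor in G and C, at 30.0% against a median of 58%, and 1.75% of all windows were at or below that share. Among the 8 subunits with a RefSeq promoter entry, the windows of ITGA2, ITGA5, ITGAV, ITGB1 and ITGB8 had between 70.0% and 78.4% G and C, and ITGA6 and ITGB5 had 50.8% and 52.8%. The ITGB8 window held 1 GGAA match, and that of ITGB5, which lies at a start 14053 bases from the canonical one in GENCODE, held 2. A match is a description of the letters and not a bound site.

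ITGB5, like ITGB6 and ITGB8 a beta partner of ITGAV, was higher in the lines with EHF. It was at 47.5, 46.0 and 73.0 CPM in the EV libraries, at 114, 119 and 117 in EHF, at 34.0, 34.2 and 38.2 in CDX1 and at 84.6, 92.0 and 93.8 in EHF+CDX1. No library overlapped with those of another line. It rose with EHF alone (1.07 ± 0.15, 2.10-fold, adjusted p = 0.0129) and in the EHF+CDX1 line against CDX1 (1.35 ± 0.15, 2.54-fold, adjusted p = 0.000187). The first call was lost without EV replicate 2 (0.95, adjusted p = 0.0503) and in a fit to the EV and EHF libraries alone (1.09, adjusted p = 0.0869). Against EV, the log2 differences of 0.70 ± 0.15 in the EHF+CDX1 line and -0.65 ± 0.15 in the CDX1 line passed the test against no change (adjusted p = 0.00397 and 0.00222) but not the 1.5-fold test. ITGB5 was called higher in the EHF+CDX1 line when EV replicate 3 was left out (0.94 ± 0.07, adjusted p = 8.08e-05).

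ITGAV itself, the alpha subunit that these share, varied less. It lay between 43.5 and 73.6 CPM in EV, 76.8 and 78.5 in EHF, 47.9 and 58.5 in CDX1 and 57.4 and 62.7 in EHF+CDX1 cells. The difference of 0.49 ± 0.16 with EHF alone did not pass the 1.5-fold test (adjusted p = 1), though it was called without EV replicate 3 (0.76 ± 0.08, adjusted p = 0.0446).

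The relative RNA levels of ITGB5, ITGB6 and ITGB8, which pair with ITGAV alone, stood apart in EHF+CDX1 cells, and they are given with no test. ITGB1 and ITGB3, which also pair with ITGAV, are not in the sum, and ITGB1 alone was above it in each line. The summed RPKM of ITGB5, ITGB6 and ITGB8 was 12.4 ± 3.34 in EV, 26.2 ± 0.442 in EHF, 7.84 ± 0.485 in CDX1 and 22.0 ± 0.980 in EHF+CDX1 cells. ITGB5 made up 96.9 ± 0.364% of the sum in EV, 96.8 ± 0.416% in EHF and 98.0 ± 0.482% in CDX1 cells, and 88.7 ± 0.868% in EHF+CDX1 cells. In the EHF+CDX1 line ITGB8 took 9.08 ± 1.11% and ITGB6 2.24 ± 0.362%, against 2.92 ± 0.420% and 0.163 ± 0.0603% in EV. So in RNA ITGB8, known to act on latent TGF-beta, had its largest share in the EHF+CDX1 line, while ITGB5 remained the main one of these 3. The share of ITGB6 is only a description, as this gene passed the filter on low counts through the EHF+CDX1 libraries alone. RNA shares do not give the amount of receptor at the surface.

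**Figure D3:**
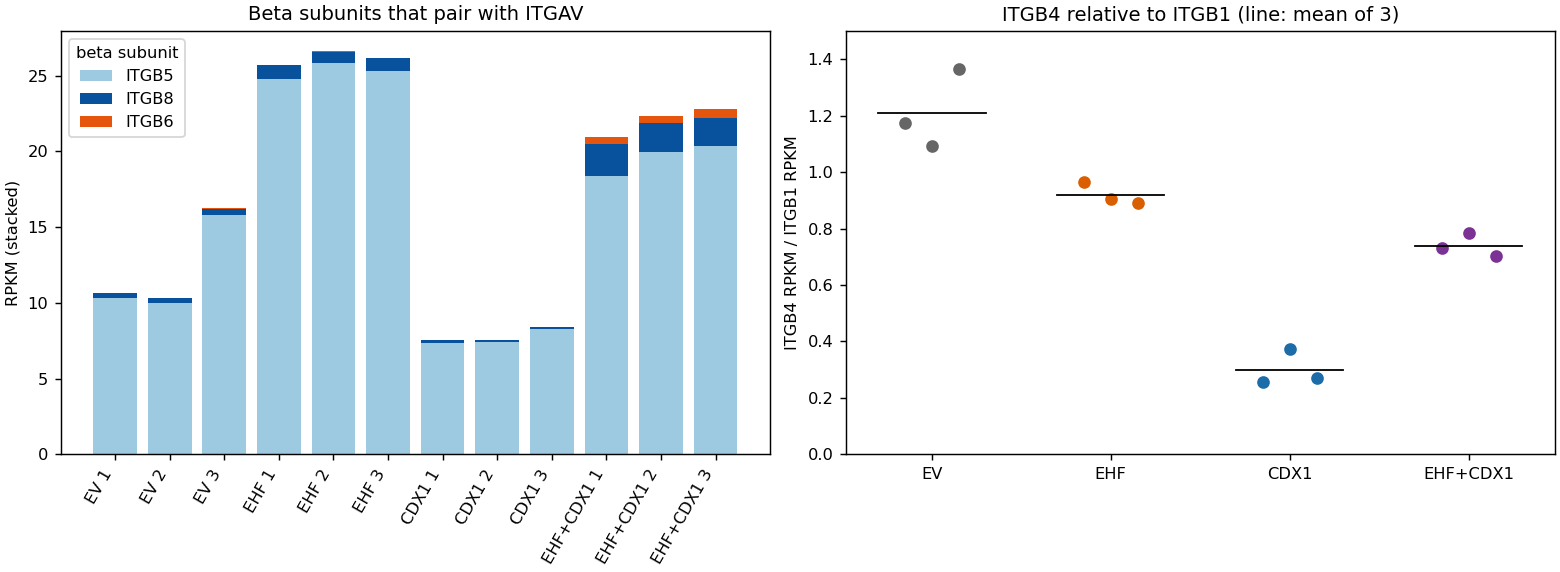
Left, RPKM of ITGB5, ITGB8 and ITGB6 stacked for each of the 12 libraries; the ITGB8 and ITGB6 segments are largest in the 3 EHF+CDX1 libraries. Right, ITGB4 RPKM divided by ITGB1 RPKM in each library (points) with the mean of 3 (lines), which falls from 1.21 in EV to 0.300 in CDX1.

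ITGB4, the hemidesmosome subunit, was lowest with CDX1 alone. Its CPM was 499, 494 and 1571 in EV, 695, 641 and 633 in EHF, 235, 298 and 221 in CDX1 and 443, 452 and 448 in EHF+CDX1 cells. All 3 CDX1 libraries lay below the other 9. ITGB4 fell in CDX1 against EV (-1.77 ± 0.36, adjusted p = 0.00439), and without EV replicate 3 the difference was smaller but still called (-0.98 ± 0.09, adjusted p = 6.57e-05). The EHF+CDX1 line differed from CDX1 by 0.83 ± 0.36, which did not pass the test with all libraries (adjusted p = 0.219) and passed it without EV replicate 3 (0.83 ± 0.08, adjusted p = 0.00149). ITGB4 overlaps GALK1, whose reads summed over all 12 libraries came to 5.87% of its own. GALK1 had up to 3682 reads in a library, and its share in each line was not examined. No strand setting of the counting was stated.

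ITGA6, the only partner of ITGB4, did not follow it. It was at 101, 98.4 and 235 CPM in EV, 220, 211 and 223 in EHF, 233, 169 and 183 in CDX1 and 269, 248 and 275 in EHF+CDX1 cells. EV replicates 1 and 2 lay below all other libraries and EV replicate 3 within the range of the others. With all libraries no comparison of ITGA6 passed the 1.5-fold test, the largest being 0.86 ± 0.27 in EHF+CDX1 against EV (adjusted p = 0.334). When EV replicate 3 was left out, ITGA6 was called higher with EHF (1.13 ± 0.10, adjusted p = 4.54e-05), with CDX1 (0.97 ± 0.10, adjusted p = 0.000249) and with both (1.40 ± 0.10, adjusted p = 3.21e-07). Of these, the call with CDX1 alone was lost when quantile normalization in limma voom was used on the same 11 libraries (0.63, adjusted p = 0.508). Per exon length, ITGA6 was at 0.216 ± 0.0349 of ITGB4 in EV and at 0.936 ± 0.252 of it in CDX1.

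The subunits of the ITGB1 receptors moved in different ways and depended on EV replicate 3. ITGB1 was at 254, 271 and 688 CPM in EV, 431, 424 and 426 in EHF, 552, 479 and 486 in CDX1 and 363, 345 and 382 in EHF+CDX1 cells. ITGA5, its partner for fibronectin, was at 82.6, 76.4 and 182 CPM in EV, 126, 126 and 123 in EHF, 162, 156 and 139 in CDX1 and 101, 99.4 and 102 in EHF+CDX1 cells. Both were lowest in EV replicates 1 and 2 and highest in EV replicate 3. No comparison of either passed the 1.5-fold test with all libraries. Without EV replicate 3, ITGA5 (0.94 ± 0.07, adjusted p = 1.13e-05) and ITGB1 (0.95 ± 0.07, adjusted p = 7.98e-06) were called higher in CDX1 than in EV, but with quantile normalization of those 11 libraries neither was (0.65 with adjusted p = 0.279, and 0.53 with adjusted p = 1). The sign of the ITGB1 difference between EHF+CDX1 and CDX1 turned from -0.48 with TMM to 0.04 with quantile normalization, and the differences between CDX1 and EHF cells turned from 0.28 to -0.10 for ITGA5 and from 0.24 to -0.21 for ITGB1, so no order of these lines is given.

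For the laminin and collagen partners the EHF libraries lay above the CDX1 libraries, but with all 12 libraries this passed no test. ITGA3, which binds laminin, lay between 496 and 1714 CPM in EV, 705 and 746 in EHF, 394 and 412 in CDX1 and 523 and 537 in EHF+CDX1 cells. Its difference of -1.16 ± 0.37 between CDX1 and EV passed the test against no change (adjusted p = 0.0144) but not the 1.5-fold test (adjusted p = 0.0597). This value was -0.31 ± 0.05 without EV replicate 3, and at -1.46 and -1.45 it was called when EV replicate 1 or 2 was left out. ITGA2, which binds collagen, lay between 48.1 and 166 CPM in EV, 85.6 and 96.0 in EHF, 38.8 and 66.1 in CDX1 and 79.6 and 87.2 in EHF+CDX1 cells, and no pair of lines differed in it with all libraries. CDX1 against EHF gave -0.84 ± 0.37 for ITGA3 (adjusted p = 0.226) and -0.82 ± 0.38 for ITGA2 (adjusted p = 0.253), and both were called without EV replicate 3, whose spread enters the estimate shared by all lines (adjusted p = 6.36e-06 and 0.0219).

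Counted over the 10 subunits, 2 were called higher with EHF alone, ITGB5 and ITGB8, where 8.33% of all tested genes were called and 5.68% were called higher. With CDX1 alone 2 were called lower, ITGB4 and ITGB8, where 44.6% of genes were called and 23.3% lower, so the share of subunits called was below that of all genes. With both factors ITGB8 was called higher against EV cells (10.4% of genes called, 7.3% higher) and against EHF cells (2.68% called, 2.49% higher), and ITGB5 and ITGB8 against CDX1 cells (41% called, 22.3% higher). ITGB6 passed the threshold in these 3 comparisons too, but the filter on low counts fixed this, and where it enters a count here it is named and not read as a result. ITGB4, ITGB5 and ITGB8 were lower in CDX1 than in EHF cells, a comparison in which 40.3% of genes were called and 21.2% lower. There the call of ITGB4 (-1.39 ± 0.36, adjusted p = 0.023) was lost with DESeq2 (adjusted p = 0.0712) and without EHF replicate 1 (0.0539), CDX1 replicate 1 (0.0739) or CDX1 replicate 3 (0.0736). It held without EV replicate 3 (-1.39 ± 0.08, adjusted p = 4.1e-09), a library that enters this comparison only through the shared estimate of spread.

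With EV replicate 3 left out, 4 subunits were called higher with EHF (ITGA6, ITGAV, ITGB5 and ITGB8, with 13.1% of genes called and 9.47% higher), and ITGA6, ITGB5 and ITGB8 beside ITGB6 with both factors (15.6% called and 11.2% higher). With CDX1 alone, ITGA5, ITGA6 and ITGB1 were then higher and ITGB4 and ITGB8 lower, with 51.1% of genes called. In EHF+CDX1 cells ITGB8 beside ITGB6 was called against EHF cells (4.15% of genes called), and ITGB4, ITGB5 and ITGB8 beside ITGB6 against CDX1 cells (48.1%). Between CDX1 and EHF cells 5 subunits were called, with 47.4% of genes. By edgeR, ITGB8 was called in each comparison with EV cells whether or not this library entered. The median log2 fold change over the 10 subunits was 0.11 with EHF, -0.71 with CDX1 and 0.02 with both, and without EV replicate 3 it was 0.73, -0.01 and 0.59. Over all tested genes the medians were -0.04, -0.03 and -0.03 with that library and -0.00332, 0.04 and 0.02 without it, so the subunit medians rested on this 1 library. The 3 comparisons share the EV libraries, so that a change in these moves all of them.

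In the test against no change, which counts smaller differences, ITGAV joined ITGB5 and ITGB8 with EHF (3 of 10, 30.1% of genes). With CDX1, ITGA3 and ITGB5 joined ITGB4 and ITGB8 (4 of 10, 68.9% of genes), and with both factors ITGA6 and ITGB5 joined ITGB6 and ITGB8 (4 of 10, 33.6% of genes). The other calls of that test were those of the 1.5-fold test, 2 against EHF cells (9.78% of genes), 3 against CDX1 cells (67.2%) and 2 in the interaction described next (58.5%). Without EV replicate 3 it counted 9 subunits with EHF (52.5% of genes), 8 with CDX1 (78.8%) and 8 with both (54.9%). In EHF+CDX1 cells it then counted 9 against EHF cells (36%) and 10 against CDX1 cells (80.9%), and in the interaction 7 (73.4%). Every count of this test for EHF+CDX1 cells and for the interaction includes ITGB6, which is not read as a result.

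**Figure D4:**
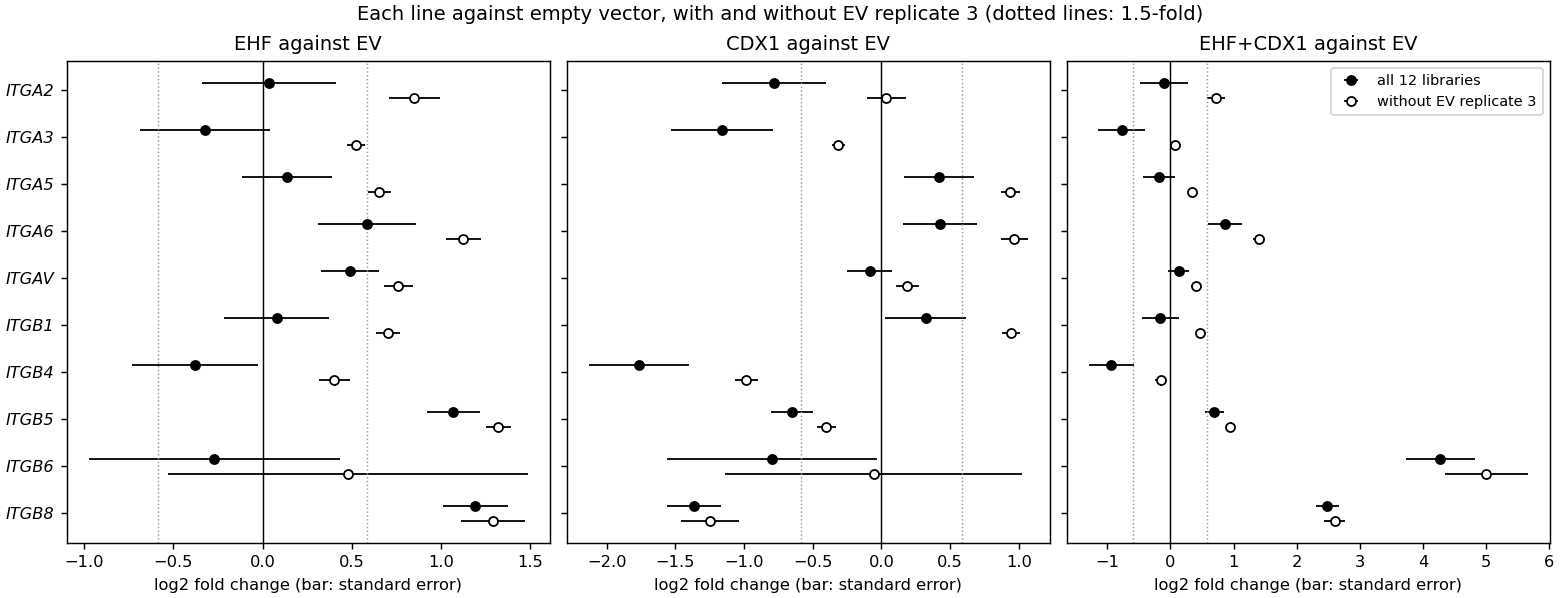
Log2 fold change (horizontal axis, bars are standard errors) of each subunit in EHF, CDX1 and EHF+CDX1 against EV, with all 12 libraries (filled) and without EV replicate 3 (open); the horizontal scale differs between panels. ITGB8 stays near 1.19, -1.37 and 2.48, whereas ITGA3 with EHF moves from -0.32 to 0.53.

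Whether the difference with EHF changed with CDX1 present was tested as an interaction on the log2 scale. It is the difference of EHF+CDX1 from CDX1 cells less that of EHF from EV cells. ITGB8 had an interaction of 2.65 ± 0.26 (adjusted p = 1.91e-05). Its level was 2.29-fold higher in EHF than in EV cells and 14.4-fold higher in EHF+CDX1 than in CDX1 cells. These pairs differ in more than the EHF plasmid. CDX1 RNA was at 487 to 559 CPM in CDX1 and 5108 to 5639 CPM in EHF+CDX1 cells. EHF RNA was at 236.5 to 335.2 CPM in EV and 11.89 to 12.99 CPM in CDX1 cells. The part of either in the interaction was not tested. ITGB6 had 5.34 ± 0.97, given as a description for the reason above. In this test 38.2% of all genes were called. The interaction of ITGB5 was 0.28 ± 0.21 (adjusted p = 0.904), so its rise with EHF was not shown to depend on CDX1. With EV replicate 3 left out, ITGA5 (-1.25 ± 0.09, adjusted p = 2.36e-07) and ITGB1 (-1.18 ± 0.09, adjusted p = 8.27e-07) were also called, with 47.7% of genes called. With quantile normalization of those libraries the call of ITGA5 held (-0.98, adjusted p = 0.000256) and that of ITGB1 did not (-0.71, adjusted p = 0.094).

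A ratio within a library does not depend on its scaling factor. ITGB4 over ITGB1, per exon length, was 1.21 ± 0.141 in EV (1.09 to 1.37), 0.920 ± 0.0394 in EHF (0.890 to 0.964), 0.739 ± 0.0416 in EHF+CDX1 (0.702 to 0.784) and 0.300 ± 0.0635 in CDX1 cells (0.255 to 0.372). The 4 lines did not overlap, and EV replicate 3 had the highest ratio. ITGA5 over ITGA3, the fibronectin against the laminin partner, was 0.445 ± 0.0253 in CDX1 cells and between 0.126 and 0.232 in the 9 other libraries. These ratios were chosen after the values were seen and carry no test.

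Of 16 other integrin subunits, mostly of leukocytes, platelets and mesenchyme, 12 passed the filter on low counts. EHF alone gave 3 higher and 1 lower (8.33% of all genes were called), CDX1 alone 3 higher and 2 lower (44.6% of all genes), and both factors 2 higher, ITGA1 and ITGAM (10.4% of all genes). The median log2 fold change of the list was 0.36, 0.10 and -0.18. Leaving out EV replicate 3 gave 4 higher with EHF, 5 higher and 2 lower with CDX1 and 3 higher with both. In that fit 13.1%, 51.1% and 15.6% of all genes were called, and the list medians were 0.81, 0.73 and -0.04. ITGAM, an alpha subunit of myeloid cells, rose from 0.696 ± 0.513 CPM in EV to 25.1 ± 0.733 with EHF, 9.54 ± 1.62 with CDX1 and 14.9 ± 0.865 with both (log2 fold change 4.97 ± 0.33, 3.58 ± 0.33 and 4.21 ± 0.33, or 5.86, 4.47 and 5.10 without EV replicate 3). Of the leukocyte markers, PTPRC had at most 6 reads and CD3E at most 3 in any library. CD68 did not share this and lay between 2.18 and 10.5 CPM in EV and 12.7 and 13.9 in EHF cells. It lay between 76.8 and 88.0 CPM in CDX1 and 20.9 and 26.6 in EHF+CDX1 cells.

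Among 29 ligands and proteins of the latent TGF-beta complex, of which 25 passed the filter, EHF gave 4 higher and 3 lower, CDX1 8 and 8, and both factors 6 and 2, beside the same 8.33%, 44.6% and 10.4% of all genes. The list medians were 0.17, 0.40 and -0.06. LAMA3, a chain of the laminin that ITGA3 and ITGA6 bind, rose from 2.40 ± 2.38 CPM in EV to 13.2 ± 0.703, 15.1 ± 3.44 and 19.7 ± 1.81 with EHF, CDX1 and both (log2 fold change 2.32, 2.52 and 2.90, adjusted p = 0.013, 0.00138 and 0.00205). THBS1, thrombospondin-1, which binds integrins and acts on latent TGF-beta, was at 8.12 ± 9.05 CPM in EV and 254 ± 92.8 in CDX1 cells (log2 fold change 4.89 ± 0.63, adjusted p = 4.78e-05). It also rose with both factors to 44.8 ± 2.27 CPM (2.39 ± 0.57, adjusted p = 0.0265), and fell from CDX1 to EHF+CDX1 cells (-2.50 ± 0.56, adjusted p = 0.00499). With EHF alone THBS1 was at 33.5 ± 1.31 CPM, a difference from EV that was not called with all libraries (1.97 ± 0.57, adjusted p = 0.0899). Leaving out EV replicate 3 raised the changes of LAMA3 to 3.64, 3.84 and 4.21. Those of THBS1 rose to 3.51 with EHF (adjusted p = 2.52e-07), 6.43 with CDX1 and 3.93 with both. This list then gave 9 higher and 1 lower with EHF, 9 and 7 with CDX1, and 11 and 2 with both. In that fit 13.1%, 51.1% and 15.6% of all genes were called. The list medians were then 0.45, 0.52 and 0.36, so that with both factors the sign turned.

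Of 10 hemidesmosome and tetraspanin partners, EHF gave 1 lower, COL17A1, and CDX1 gave SLC3A2 higher and CD82 lower (8.33% and 44.6% of all genes called). Both factors gave 0 calls by edgeR, limma voom and DESeq2 alike, with 0 of the 10 at an unadjusted p under 0.05 in the 1.5-fold test and 2 in the test against no change. These 0 calls rest on EV replicate 3, without which COL17A1 was called higher. Leaving it out also gave 1 higher and 1 lower with EHF and 3 higher and 1 lower with CDX1. In that fit 13.1%, 51.1% and 15.6% of all genes were called with EHF, CDX1 and both. The medians of the list were -0.24, -0.41 and -0.17 with EHF, CDX1 and both, and 0.12, -0.19 and 0.10 without that library. Among 29 cytoplasmic activators, inhibitors and focal adhesion proteins, EHF gave 1 higher, CDX1 9 higher and 6 lower, and both factors 2 higher and 1 lower, where 8.33%, 44.6% and 10.4% of all genes were called. Without EV replicate 3 these counts were 1 higher, 12 higher and 6 lower, and 3 higher and 2 lower, beside 13.1%, 51.1% and 15.6% of all genes. The medians were -0.01, 0.14 and 0.01 with all libraries and 0.10, 0.14 and 0.22 without that library. FERMT3, the kindlin of blood cells that activates beta subunits, rose from 1.81 ± 0.435 CPM in EV to 19.4 ± 2.90 with CDX1 and 5.21 ± 1.05 with both (log2 fold change 3.38 ± 0.22 and 1.47 ± 0.22). DAB2, an endocytic adaptor that binds beta subunit tails, rose from 6.27 ± 0.910 CPM to 12.4 ± 0.596, 14.4 ± 1.99 and 13.8 ± 1.71 with EHF, CDX1 and both (adjusted p = 0.0306, 0.000616 and 0.00475), and the call with EHF alone was lost without EV replicate 3 (0.87, adjusted p = 0.0577).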

How the data were processed

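Alignment of the RNA-seq reads by the authors was to GRCh38/hg38 with Subread, and reads with a unique position were counted over RefSeq exons with featureCounts (version 2.0.0 of both, per the submitters' processing notes), with no strand setting given in the sources used here. The authors deposited these raw counts for 28395 genes. The authors also deposited log2 RPKM values, which they made with a CPM filter, voom, quantile normalization and exon lengths, and these were used as an alternative. Exon lengths, which the count table did not hold, were recovered from the difference between the deposited log2 RPKM and log2 CPM recomputed in the same way.

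Counts were fitted in edgeR 4.0.16 (R 4.3.3) over all 12 libraries, with TMM factors of 0.799 to 0.845 in CDX1 and 0.973 to 1.09 elsewhere, for genes with at least 0.5 CPM in at least 3 libraries, which left out 0.0585% of counts. Calls used glmTreat against a 1.5-fold change, and the SE is the log2 difference, without its sign, over the root of F. Adjusted p-values are from glmTreat unless the test against no change (glmQLFTest) is named, and cover all 15853 tested genes. Alternatives were RLE factors, no CPM filter, DESeq2 1.42.0, limma 3.58.1 on voom or deposited values, a null of no change, a fit to the compared libraries alone, a replicate block and each library left out. Leaving out EV replicate 3 together with the test against no change or with quantile normalization, and the ratios between subunits, were added after the data were seen. The subunits and gene lists were chosen with earlier results of these data known. All 10 subunits are named. The genes named from each list are at most 2, those with the largest change in EHF+CDX1 against EV among called genes whose log2 CPM averaged 1 or more. Genes named with a count of 5 or fewer, and COL1A1 and CD68 among the markers, were chosen after their values were seen.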

Additional observations from a re-analysis of the deposited data

Results flagged for a closer look

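The difference in ITGB8 between lines with and without the EHF plasmid was larger in the CDX1 background, with a log2 fold change higher by 2.65 ± 0.26 (adjusted p = 1.91e-05). For ITGB6 the fitted value was 5.34 ± 0.97, with 41 to 115 reads in the EHF+CDX1 libraries and 0 to 9 in all others. As ITGB6 passed the filter on low counts only through the EHF+CDX1 libraries, this is a description and no test of the difference. When each library was left out in turn, the difference lay between 4.58 and 6.15 for ITGB6 and between 2.49 and 2.88 for ITGB8. CDX1 RNA also differed between the lines compared here, at 487 to 559 CPM in CDX1 and 5108 to 5639 CPM in EHF+CDX1 cells. EHF RNA in the lines without the EHF plasmid differed too, at 236.5 to 335.2 CPM in EV and 11.89 to 12.99 CPM in CDX1 cells. The part of either in the result was not tested.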

How the results depend on the processing

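Over 1530 values, one for each subunit, comparison and alternative, 1437 kept their direction and side of the threshold or stayed uncalled, 75 became called, 12 lost their call and 6 reversed. All 6 reversals came without EV replicate 3 in the test against no change: with EHF, ITGA3 (0.53) and ITGB4 (0.40); with CDX1, ITGAV (0.19); and with both against EV, ITGA2 (0.72), ITGA5 (0.34) and ITGB1 (0.47). In that setting 9, 8 and 8 subunits were called with EHF, CDX1 and both against EV (52.5%, 78.8% and 54.9% of all genes). In EHF+CDX1 cells 9 and 10 were called against EHF and CDX1 cells (36% and 80.9%), and 7 in the interaction (73.4%). The cause of these shifts was not tested. Leaving out 1 library in turn gave 1 to 4 calls with EHF, 2 to 5 with CDX1, 2 to 4 with both, 1 to 2 against EHF, 3 to 4 against CDX1 and 2 to 4 in the interaction. The highest counts with EHF, CDX1 and both, against CDX1 and in the interaction came without EV replicate 3. There 13.1%, 51.1%, 15.6%, 48.1% and 47.7% of all genes were called. With EHF, 1 subunit was called by limma voom (6.33% of all genes), 1 by limma on the deposited log2 RPKM (6.46%) and 1 with only the libraries compared (5.5%). The test against no change gave 4 calls with CDX1 (68.9%) and 4 with both (33.6%). Quantile normalization without EV replicate 3 gave 4 calls with both (11.1%) and 7 in EHF+CDX1 against CDX1 (41.9%). Every count for EHF+CDX1 cells and the interaction holds ITGB6, whose call the filter on low counts fixed. From the deposited log2 RPKM, the ITGB5 share was 97.3% in EHF and 89.7% in EHF+CDX1, that of ITGB6 0.334% in EV and 1.86% in EHF+CDX1, and that of ITGB8 2.68% in EHF. With the replicate number as a block, the 6 counts stayed at 2, 2, 2, 2, 3 and 2; same-numbered libraries did not deviate together (18 correlations from -0.0653 to 0.0802), so the numbers do not pair them. No other scaling moved the median of all genes by over 0.1, but these methods level the bulk of genes, so that median says little about single subunits. Quantile normalization moved ITGB1 in EHF+CDX1 against CDX1 from -0.48 to 0.04. Depth limits ITGB6, with at most 9 reads outside EHF+CDX1.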

Other observations

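The genes whose log2 CPM followed the 3 most variable subunits most closely over the 12 libraries were of different kinds. For ITGB6 they were IFITM1 (Pearson r = 0.984) and ISG15 (0.981), both interferon-induced genes, and BIN1 (0.979). ISG15 was at 80.0, 94.2 and 72.7 CPM on average in EV, EHF and CDX1 cells and at 366.5 CPM in EHF+CDX1 cells, and IFITM1 at 11.8, 13.0, 8.19 and 81.4 CPM. BIN1 differed far less, at 60.2, 61.4, 58.8 and 75.2 CPM in the same order. As ITGB6 was near absence outside EHF+CDX1 cells, its correlations mark only genes that were higher in that line. For ITGB8 they were SH3RF2 (0.990), NFE2L3 (0.984) and KRTAP4-7 (0.982), and for ITGB5 ARHGEF40 (0.989), FRMD5 (0.987) and FUCA1, a lysosomal fucosidase (0.986). The 12 libraries share 4 lines, so these values describe likeness between at most 4 levels rather than between 12 independent samples. Among the subunits, ITGA5 and ITGB1, which form the fibronectin receptor, were the most alike pair (0.974, and 0.970 without EV replicate 3), followed by ITGA3 and ITGB4 (0.951, and 0.931 without it).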
